A study of Mus musculus with 16 samples.

Results

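The complement system was described through 8 of its genes among the 17721 genes counted in single cells of the mouse mammary gland: C3, C4b, C1qa, C1qb, C1qc, Cfb, Serping1 and Cd55. The 8 genes were chosen by name as complement components and regulators, with earlier results of these data known. The value that was known was the level of C4b by location in basal cells, so it is given below as a description with no test. Cells came from single fragments of the mammary gland, 4 from the nipple, 6 from ducts and 6 from terminal end buds (TEBs), the growing tips of the ducts in puberty. All groups shared the C57BL/6 strain and, by the study's figure legends, the K14-Cre/R26-mTmG reporter at an age of 5 weeks. In this reporter the keratin 14 promoter drives Cre and Cre switches a membrane fluorophore. The study's methods are wider, and name mice of 5 to 6 weeks with this reporter or wild-type as the source of dissected fragments. Location was the only difference that the labels gave, and no treatment was named. Nipple fragments shared no label number with the others, so a mouse or batch that followed these numbers cannot be told apart from location. The labels do not name the mouse of each fragment, so p-values measure the spread between fragments, which may share a mouse.

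Complement is a cascade of plasma and tissue proteins that tags surfaces and recruits immune cells. C1q, built from the chains of C1qa, C1qb and C1qc, starts the classical pathway, which cleaves C4 and then C3. Factor B, from Cfb, forms the convertase of the alternative pathway with C3, whereas C1 inhibitor, from Serping1, and decay accelerating factor, from Cd55, hold the cascade back.

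On GRCm38, C3 lies at chr17:57203970-57228136, Cfb at chr17:34856374-34862518 and C4b at chr17:34728380-34743882. The C1q genes are neighbours at chr4:136895917-136898803 (C1qa), chr4:136889804-136893065 (C1qc) and chr4:136880129-136886187 (C1qb). Serping1 lies at chr2:84765387-84775444 and Cd55 at chr1:130439027-130462744, and all 8 are protein coding genes on the minus strand in GENCODE. C4b has a close relative in C4a, which held 85 UMIs in all, and reads that match both were not counted, so that the C4b level is uncertain by that loss.

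Since the 3 C1q chains were counted together in the same cells, their promoters are shown. Of the 8 genes, C3, C1qb, C1qc and Cd55 had a promoter entry in RefSeq (GRCm38.p6, from 250 bases before to 50 after the gene start). Both C1q entries held GAGGAA, letters bound by the myeloid factor PU.1, on either strand, and those of C3 and Cd55 did not. These are 30 bases around the match, written 5′ to 3′ on the strand of the gene, with the match in capitals:
C1qb, chr4:136886213-136886242, minus strand: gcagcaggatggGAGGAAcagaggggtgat
C1qc, chr4:136893090-136893119, minus strand: gacggcagacacTTCCTCattttggcacac
The match began 30 bases before the RefSeq start of C1qb and 193 bases before that of C1qc, and neither start is the GENCODE start given above. The same letters occurred in 28.28% of the 32851 mouse promoters of this length, so the match is a description and no sign of binding. GAAANNGAA, which is part of the interferon-stimulated element and stood in 8.56% of promoters, was in none of the 4 entries, and neither was GGANTTTCC, an NF-kB motif that 1.254% of promoters held.

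The deposited table held 1419 cells, with 83 to 93 cells and 1856141 to 5233122 UMIs per fragment, spike-ins included. A UMI (unique molecular identifier) marks 1 captured molecule, so counts need no correction for gene length. The study's limits on spike-ins, UMIs and genes left 1318 cells. Clusters of these cells were named from marker genes as fibroblast-like (252 cells), myeloid-like (78), basal-like (294), ER+ luminal-like (430) and ER- luminal-like (177), while 19 pericyte-like cells and 68 cells of a cluster led by mast cell and endothelial genes were left untested. The 7 fibroblast markers summed to 32323 CPM (UMIs scaled to the same total in each sum) in fibroblast-like cells and the 6 myeloid markers to 9587 CPM in myeloid-like cells, with none of them at 0. Levels are CPM of the UMIs summed over the cells of a class in 1 fragment, which is the replicate (at least 5 cells, 3 for myeloid-like cells). Classes came from the same counts, all 8 genes were among the genes used to cluster, and C1qa, C1qb and C1qc were among the 10 leading genes of the myeloid-like cluster, so that differences between classes are descriptions with no test.

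The cells were lysed in barcoded wells and pooled, and RNA of 1 well can be counted in another. From markers of other classes, wells held 3.67% to 15.1% of the fragment's pooled profile on average in the groups by class and location. For each gene the UMIs expected from other wells are this share times the gene's rate in the pooled fragment times the UMIs of the class. The share depended on the markers: in the 4 classes other than the myeloid-like one it averaged 6.80% to 9.39% over all markers, which is the share used unless another is named, and 2.09% to 4.04% over myeloid markers alone. All 95 well barcodes occurred in more than 1 library.

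**Figure D1:**
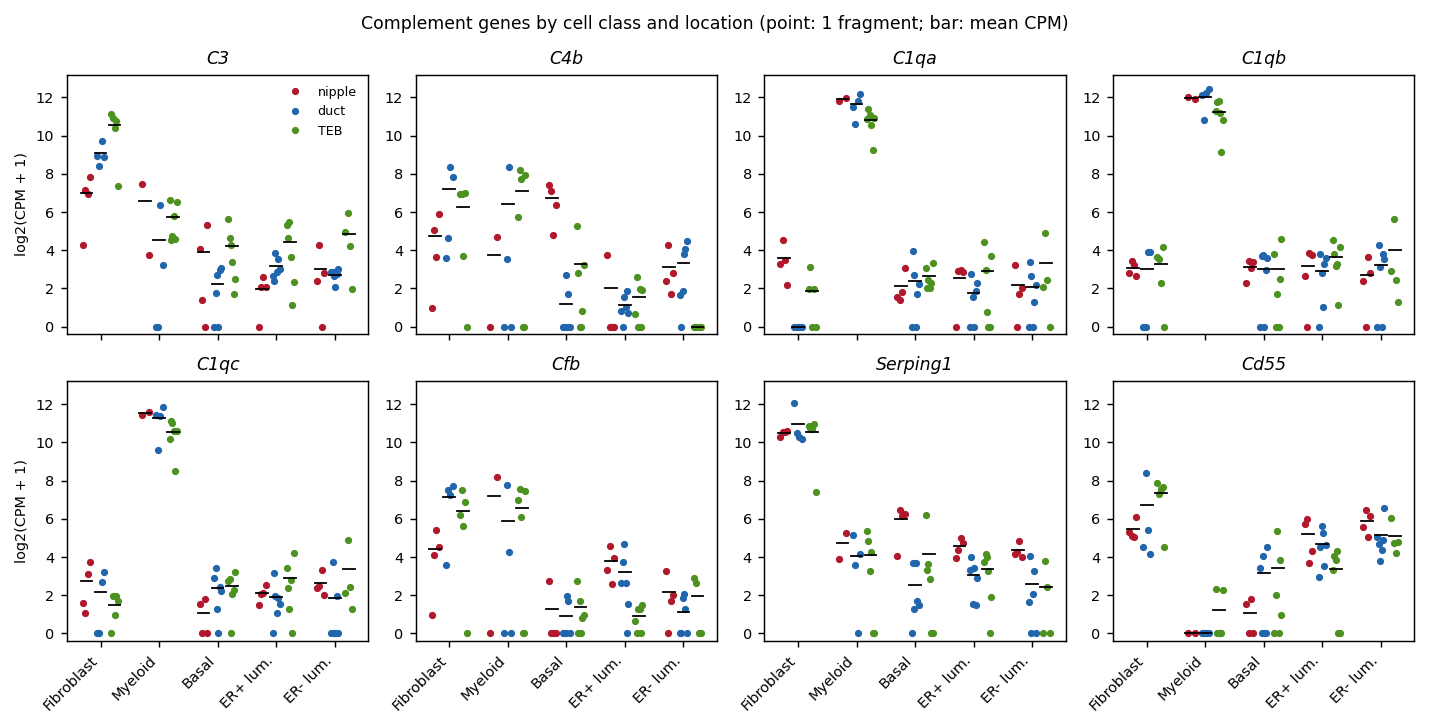
Levels of the 8 complement genes, as log2(CPM + 1), in each class, with 1 point per fragment coloured by location and a bar at the mean CPM of the location. C3 and Serping1 are highest in fibroblast-like cells, the 3 C1q chains in myeloid-like cells, and Cd55 reaches 41.4 CPM on average in ER- luminal-like cells.

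C3, the central component that every pathway cleaves, was mainly a fibroblast transcript. Fibroblast-like cells held 7819 UMIs, 93.4% of those in the 1318 cells, and made up 19.1% of the cells. The level was 776 ± 772 CPM (SD, n = 13 fragments) there, 49.5 ± 53.4 in myeloid-like cells (n = 12), 12.4 ± 16.1 in ER- luminal-like (n = 14), 11.6 ± 14.6 in basal-like (n = 16) and 11.3 ± 12.8 in ER+ luminal-like cells (n = 16). The fragments of neighbouring classes overlapped at each step of this order. Epithelial cells held 95 UMIs in the basal-like class against 67.4 expected from other wells, 235 against 169.6 in the ER+ and 83 against 34.5 in the ER- luminal-like class.

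Among fibroblast-like cells C3 was lowest at the nipple. Nipple fragments held 18.7, 142, 120 and 229 CPM, duct fragments 481, 345, 854 and 476, and TEB fragments 2207, 1968, 1359, 1723 and 162. All duct values were above all nipple values, and the TEB values were the highest but for T42, which lay among the nipple values. The means were 127 ± 86.3 CPM at the nipple (SD, n = 4), 539 ± 219 in ducts (n = 4) and 1484 ± 803 in TEBs (n = 5). In edgeR's quasi-likelihood fit the difference between nipple and TEB was a log2 of -3.54 (SE 0.82, Benjamini-Hochberg adjusted p = 0.0704) and that between nipple and duct -2.08 (SE 0.79, adjusted p = 0.371), so neither passed the threshold of 0.05. Without T42, whose class held 6 cells of which 2 had a C3 UMI, nipple minus TEB was -3.83 (adjusted p = 0.00586 by edgeR), and DESeq2 on all fragments gave -3.58 (adjusted p = 2.98e-07) and, for nipple minus duct, -2.18 (adjusted p = 0.0340).

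None of the 6 of 8 genes that passed the filter on low counts in fibroblast-like cells was called in any pair of locations by edgeR, with 2 at an unadjusted p under 0.05 between the nipple and TEBs (C3 and Cd55), 2 between the nipple and ducts (C3 and Cfb) and 0 between ducts and TEBs. DESeq2 called 1, 1 and 0 of them. Of all genes tested, edgeR called 1.54% between the nipple and TEBs, 0.2% between the nipple and ducts and 0.271% between ducts and TEBs. At an unadjusted p under 0.05 by edgeR were 850, 889 and 944 of the 8489 genes in these pairs.

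The fibroblast-like cells fell into 3 clusters that were spread unevenly over the locations. A cluster led by Mmp3, Penk and Smoc2 held 115 nipple, 29 duct and 16 TEB cells. A cluster led by Pi16 and Akr1c18, with Dpp4 and C3 itself among its leading genes, held 1, 3 and 64, and a cluster led by F2r and Lrrc15 held 0, 6 and 18. The pooled C3 level was 226 CPM in the first, 2302 in the second and 5.4 in the third. Of the 6 fibroblast-like cells of T42, 4 were in the third cluster and none in the second.

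Cluster and location could be told apart only in part. In TEBs the Pi16 cluster held 2250, 2489, 2411 and 2381 CPM of C3 in the 4 fragments with at least 5 such cells. In the Mmp3 and Penk cluster the 4 nipple fragments held 18.5, 135, 116 and 91.2 CPM, the 3 duct fragments 491, 1097 and 488 and the only TEB fragment 375. The nipple fragments were all lower than the others within this cluster, and the difference from duct was a log2 of -2.96 (SE 0.54, edgeR adjusted p = 0.0247, 4 against 3 fragments, with 0.853% of genes called), in a comparison added after the data were seen. At a finer resolution this cluster split into one led by Cthrc1 and Penk with 86 nipple cells and 1 duct cell, at 30.6 CPM of C3 at the nipple, and one led by Myoc and Scg3 at 274 CPM in 29 nipple, 672 in 28 duct and 650 in 16 TEB cells. The part of these subclusters in the difference within the cluster was not tested.

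**Figure D2:**
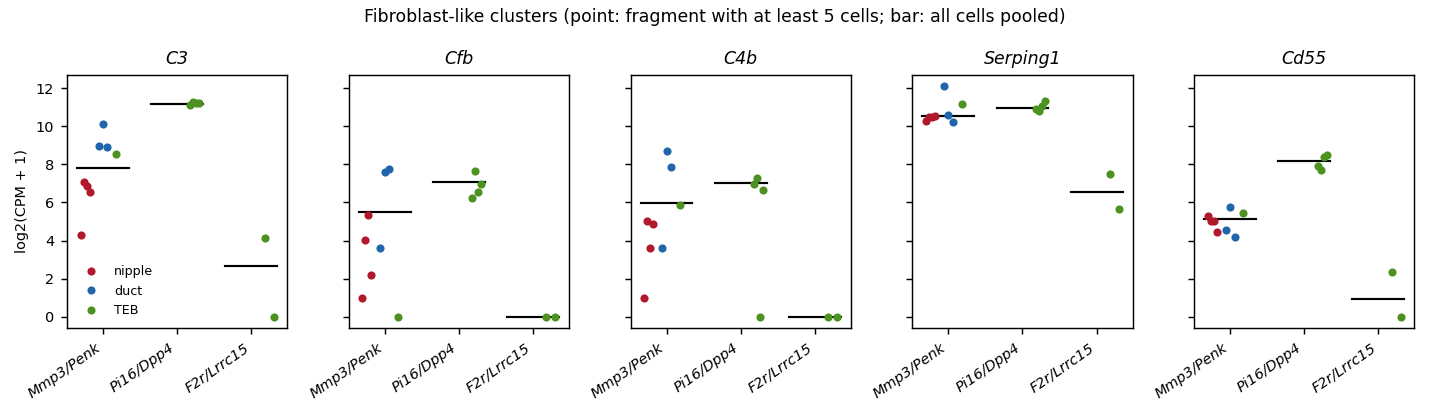
Levels of C3, Cfb, C4b, Serping1 and Cd55, as log2(CPM + 1), in the 3 clusters of fibroblast-like cells, named by leading genes, with 1 point per fragment that had at least 5 cells of the cluster and a bar at the level of all its cells pooled. The Pi16 cluster holds the highest pooled C3 (2302 CPM) and Cd55 (289 CPM), and the F2r and Lrrc15 cluster the lowest of all 5 genes.

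Cfb, whose product pairs with C3 in the alternative pathway, had 63.8% of its UMIs in fibroblast-like and 16.3% in myeloid-like cells. The levels were 81.2 ± 76.9 CPM (SD, n = 13) and 89.6 ± 104 CPM (n = 12), and they did not differ beyond their spread. The fibroblast-like levels were 0.983, 16.4, 42 and 22 CPM at the nipple, 10.9, 184, 152 and 207 in ducts and 72.1, 180, 49.2, 117 and 0 in TEBs. The nipple values lay below 43 but overlapped with D32 and T42, and the log2 of nipple minus duct was -2.79 (SE 1.08, edgeR adjusted p = 0.365). With fragments of at least 10 cells, which left 4 nipple, 2 duct and 4 TEB fragments, Cfb was called for nipple minus duct (-3.07, edgeR adjusted p = 0.0498) and for nipple minus TEB (-2.32, adjusted p = 0.0499). The share of all genes called in this setting is not given. In both classes Cfb came from few wells. Of the myeloid-like cells 17 of 78 had a UMI and the highest held 27 of the 163. Of the fibroblast-like cells 59 of 252 had a UMI and the highest held 64 of the 639.

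In epithelium Cfb was rare, with 89 UMIs in 29 of 430 ER+ luminal-like cells against 32.7 expected from other wells. The nipple fragments held 8.92, 22.8, 5.12 and 14.2 CPM, the TEB fragments 0.563, 0, 1.46, 1.46, 0 and 1.83, and the duct fragments 0 to 24.5 with a median of 5.28. All nipple values were above all TEB values, and the difference was a log2 of 3.59 (SE 1.08, edgeR adjusted p = 0.0415). Cfb passed the filter on low counts through N22, N24, D32 and D51, and through no TEB fragment. The gene was thus let in by fragments where it was high, so this p is no independent support for the difference. Cfb was the 1 gene called of 5 that passed the filter in this class (3 at an unadjusted p under 0.05, 2 called by DESeq2). Between nipple and duct 0 were called (1 and 0), and between duct and TEB 0 (2 and 0). Of all genes 5.67% were called between the nipple and TEBs, 2.03% between the nipple and ducts and 1.82% between ducts and TEBs. At an unadjusted p under 0.05 by edgeR were 1636, 1234 and 869 of the 8832 genes in these pairs. The nipple value rested on 24 UMIs in 5 of 43 cells, against 2.78 expected from other wells, and the adjusted p was above 0.05 in 10 of 23 alternative settings that gave a value. The ER+ luminal-like class was made of a cluster with 16 nipple, 104 duct and 113 TEB cells and one with 27, 110 and 60. The part of these clusters in its differences by location was not tested. The start of Cfb lies next to the end of C2, at chr17:34862604-34898265 on the same strand, and a read past the end of C2 could be counted for Cfb. C2 was also higher at the nipple in this class, as given below, and its part in the Cfb count was not tested.

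C4b, the substrate of the classical pathway, was spread over 3 classes. Fibroblast-like cells held 55.9% of its UMIs, basal-like cells 20.3% and myeloid-like cells 15.9%. The level was 97.8 ± 132 CPM in myeloid-like (SD, n = 12), 81.9 ± 98.8 in fibroblast-like (n = 13) and 29.7 ± 53.2 in basal-like cells (n = 16), all overlapping, and 6.10 ± 7.58 in ER- (n = 14) and 1.93 ± 3.18 in ER+ luminal-like cells (n = 16). The ER+ luminal-like class held 30 UMIs against 29.9 expected from other wells, or 14.6 with the share from myeloid markers alone. In fibroblast-like cells no fragment of the nipple exceeded 58.9 CPM, ducts ranged from 10.9 to 322 and TEBs from 0 to 126, and no pair of locations was called. T33 had 0 UMIs of C4b in the 13 cells of its Pi16 cluster, while T31, T32 and T34 held 98.6 to 154 CPM there.

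In basal-like cells, the outer contractile layer of the epithelium, C4b was counted mainly at the nipple. The 4 nipple fragments held 172, 134, 27.0 and 82.1 CPM, the 6 duct fragments 0 to 5.6 and the 6 TEB fragments 0 to 37.7. Every nipple fragment was above every duct fragment, and T31 was the only TEB fragment above the lowest nipple one. The nipple UMIs numbered 227 against 5.51 expected from other wells. They came from 25 of 97 cells in all 4 fragments, with 75 of them in 1 cell of N21. The basal-like class was made of a cluster with 96 nipple, 115 duct and 0 TEB cells and one with 1, 0 and 82, and this cell was the 1 nipple cell of the second. The 10 nipple basal-like cells with at least 5 C4b UMIs had a median of 1002 CPM of summed fibroblast markers, against 1351 CPM in the other 87 nipple basal-like cells and 34447 CPM in fibroblast-like cells. Their summed basal markers had a median of 15276 CPM, from 197 to 32583, against 18113 CPM in the other 87 and 165 in fibroblast-like cells. By basal markers at least 1 of them was thus near the fibroblast-like level. Their summed fibroblast markers, from 537 to 1452 CPM, were all far below that of fibroblast-like cells.

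The 3 C1q chains were counted in myeloid-like cells, which held 94.2% of C1qa, 91.8% of C1qb and 93.4% of C1qc UMIs and were 5.92% of the cells. The levels there were 2589 ± 1185 CPM for C1qa, 3245 ± 1449 for C1qb and 2064 ± 1017 for C1qc (SD, n = 12), and every fragment was above every fragment of any other class. With each cell thinned to 5000 UMIs, 60.3% of myeloid-like cells had a C1qa UMI (exact 95% interval 48.5% to 71.2%, 61.5% without thinning, median depth 18966 UMIs) against 3.40% of basal-like cells (1.64% to 6.17%, 11.9% without thinning, median depth 25194 UMIs). Whether the 3 chains outside myeloid-like cells exceeded the count expected from other wells depended on the markers behind the share. Fibroblast-like cells held 60 C1qa, 76 C1qb and 39 C1qc UMIs against 68.8, 82.8 and 53.4 expected, and basal-like cells 43, 78 and 33 against 68.5, 78.3 and 53.0. With the share from myeloid markers alone the expected counts were 32.5, 36.5 and 24.2 in fibroblast-like and 30.7, 37.0 and 25.2 in basal-like cells, all below the counts. The luminal classes held more C1qb than expected, 181 against 134.6 in ER+ and 70 against 30.9 in ER- luminal-like cells. Of all C1q UMIs in ER- luminal-like cells, 73 of 147 were in 1 cell.

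**Figure D3:**
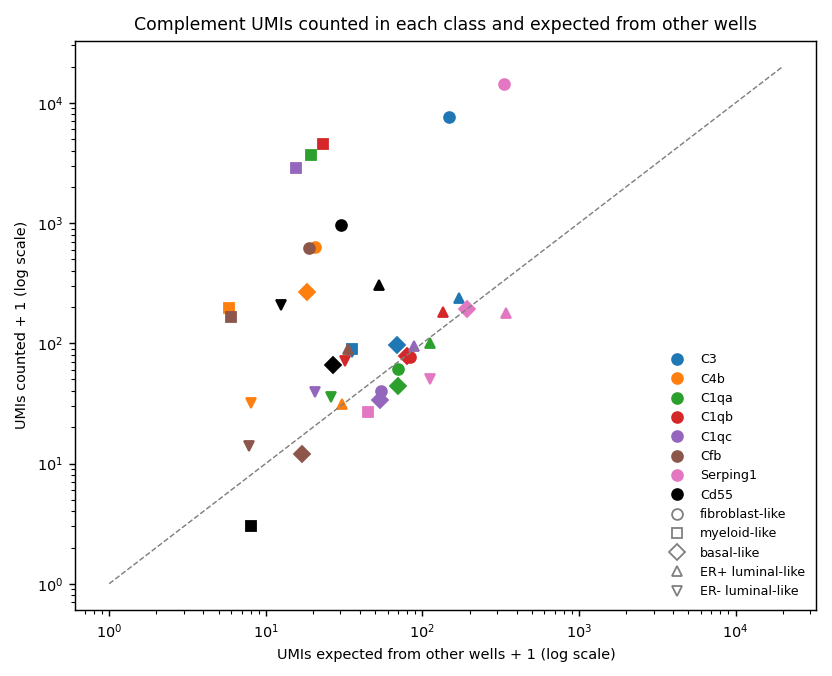
UMIs of the 8 genes counted in each class against those expected from other wells (both + 1, log scales, colours for genes and shapes for classes), with a dashed line where they are equal. The share over all markers is plotted. C1q chains in fibroblast-like and basal-like cells and Serping1 in epithelial classes lie near or below the line on this share (basal-like Serping1 and these C1q chains lie above it on the share from myeloid markers alone), and C4b in basal-like cells (264 counted, 17.4 expected) and Cd55 in luminal classes lie above it.

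Myeloid-like cells were of 2 kinds by C1q. Of 78 cells, 28 held 0 to 2 UMIs of the 3 chains together, 50 held 14 or more with a median of 255, and none held 3 to 13. In the C1q-rich cells C1qa, C1qb and C1qc took 4304, 5164 and 3342 UMIs, and in the C1q-poor ones 2, 5 and 4. Among genes not used to make this split, C4b held 207 UMIs in the rich and 0 in the poor cells, Fcna, a lectin pathway starter, 336 and 0, and Cd93, a receptor once named for C1q, 192 and 2. The receptor C3ar1 stood at 605 and 51.7 CPM and Csf1r, the growth factor receptor of macrophages, at 1027 and 174. Properdin, from Cfp, stood at 771 and 1030 CPM, and Itgb2, the common chain of the complement receptors 3 and 4, at 441 and 886. Itgam stood at 218 and 352 CPM and C3 at 28.9 and 103 (34 and 54 UMIs), so these genes were higher in the C1q-poor cells. Of the other myeloid markers, Tyrobp (2729 and 3309 CPM) and Fcer1g (3153 and 3240) were also higher there. Cd68 (1180 and 624), Cd83 (878 and 747) and Aif1 (766 and 214) were lower there. These levels are pooled over cells, with no test, as the cells were split by a gene set of the same counts.

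No difference of C1q between locations passed the test in the whole myeloid-like class. C1qa held 3597 and 4006 CPM in the 2 nipple fragments, 2923, 1580, 3637 and 4577 in ducts and 1890, 2682, 2136, 1515, 612 and 1907 in TEBs. Both nipple values were above all TEB values, and the log2 of nipple minus TEB was 1.05 (SE 0.36, edgeR adjusted p = 0.308). The log2 was 0.73 for C1qb and 0.96 for C1qc in the same pair. None of 6 genes tested in the class was called by edgeR in any pair, with 1 at an unadjusted p under 0.05 between the nipple and TEBs, 0 between the nipple and ducts and 1 between ducts and TEBs, and none by DESeq2. The share of all genes called was 0%, 0% and 0.0253% in these pairs. At an unadjusted p under 0.05 by edgeR were 455, 307 and 250 of the 3950 genes. The C1q-rich cells were 9 of 12 at the nipple (exact 95% interval 42.8% to 94.5%), 17 of 25 in ducts (46.5% to 85.1%) and 24 of 41 in TEBs (42.1% to 73.7%), intervals that cover counting error only and overlap. Within C1q-rich cells C1qa was at 5449 ± 848 CPM at the nipple (SD, n = 4), 4093 ± 598 in ducts (n = 4) and 2781 ± 1031 in TEBs (n = 6), with 2 to 7 such cells per fragment, given with no test for the same reason.

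**Figure D4:**
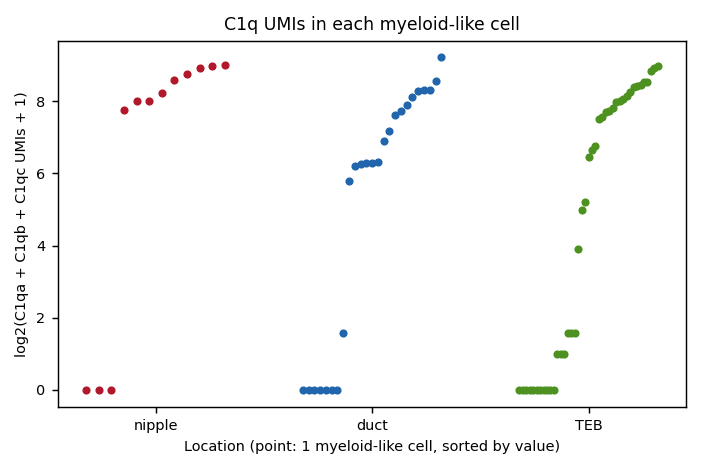
UMIs of C1qa, C1qb and C1qc summed in each myeloid-like cell, as log2(UMIs + 1), by location and sorted by value, with 1 point per cell. The cells lie either at 0 to 2 UMIs (28 cells) or at 14 and more (50 cells) in all 3 locations.

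Serping1, the inhibitor of C1r and C1s, was the most counted of the 8 genes in fibroblast-like cells. Fibroblast-like cells held 14788 UMIs (94.7%) at 1640 ± 920 CPM (SD, n = 13), above every fragment of the other 4 classes, which averaged 8.90 to 23.5 CPM. After thinning, 89.3% of fibroblast-like cells had a UMI (exact 95% interval 84.8% to 92.8%, 96.4% without thinning), against 6.41% of myeloid-like cells (2.11% to 14.3%, 28.2% without thinning), with median depths of 36416 and 18966 UMIs. Fragments held 1234, 1502, 1502 and 1567 CPM at the nipple, 4314, 1434, 1228 and 1152 in ducts and 1870, 1717, 1653, 1984 and 169 in TEBs. Apart from the highest, D32, and the lowest, T42, the fragments lay between 1152 and 1984 CPM, and the log2 of nipple minus TEB was -0.03 (SE 0.60, edgeR adjusted p = 0.996). The level was 1494 CPM in the Mmp3 and Penk cluster, 1997 in the Pi16 cluster and 92.7 in the F2r and Lrrc15 cluster, all pooled. Pericyte-like cells also held it, with 302 UMIs in 19 of 19 cells.

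In the luminal classes Serping1 was below the count expected from other wells, and in the basal-like class it depended on the markers behind the share. The ER+ luminal-like class held 179 UMIs against 341 expected, the ER- luminal-like class 49 against 112 and the basal-like class 191 against 191 over all markers, 184 over fibroblast markers and 88.2 over myeloid markers. In basal-like cells nipple fragments held 15.5, 85.6, 68.7 and 76.5 CPM, duct fragments 0, 12.0, 1.40, 11.7, 2.23 and 1.85, and TEB fragments 73.5, 9.11, 11.3, 6.22, 0 and 0. All nipple values were above all duct values, and the log2 of nipple minus duct was 3.66 (SE 1.02, edgeR adjusted p = 0.0237), with 130 UMIs at the nipple against 104.6 expected from other wells and 12 in ducts against 37.6. Serping1 passed the filter on low counts through N22, N23, N24 and T31, and through no duct fragment. In T31, 1 cell held 33 of the 39 UMIs. The gene was thus let in by fragments where it was high, so this p is no independent support for the difference. The 7 fibroblast markers, none at 0 in the class, moved with Serping1, summing to 950 to 2006 CPM in nipple basal-like fragments and 276 to 468 in duct ones, and their part in the difference was not tested. With the expected UMIs subtracted Serping1 no longer passed the filter on low counts and was not tested, and its adjusted p was above 0.05 when any 1 was left out of N22, N23, N24, D51, D61 or D62 (0.0564 to 0.0747). Of the 2 basal-like genes tested, C3 and Serping1, edgeR called 0, 1 and 0 for the nipple against TEBs, the nipple against ducts and ducts against TEBs, with 1 at an unadjusted p under 0.05 in each pair, and DESeq2 called 0, 1 and 0. Of all genes tested 18.7% were called between the nipple and TEBs, 6.29% between the nipple and ducts and 10.4% between ducts and TEBs. At an unadjusted p under 0.05 by edgeR were 2200, 1278 and 1664 of the 7316 genes in these pairs.

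Cd55, a membrane regulator that breaks up the C3 convertases, had the highest ratio of counted to expected UMIs of the 8 genes in both luminal classes. Fibroblast-like cells held 61% of its UMIs, ER+ luminal-like cells 18.3% and ER- luminal-like cells 12.7%. The level was 107 ± 104 CPM in fibroblast-like (SD, n = 13), 41.4 ± 26.3 in ER- luminal-like (n = 14), 21.8 ± 18.5 in ER+ luminal-like (n = 16), 6.86 ± 11.3 in basal-like (n = 16) and 0.655 ± 1.53 in myeloid-like cells (n = 12), and the fragments of neighbouring classes overlapped. ER- luminal-like cells held 209 UMIs against 11.5 expected and ER+ luminal-like cells 305 against 51.6, whereas myeloid-like cells held 2 against 7.02. After thinning, 12.5% of ER- luminal-like cells (8.0% to 18.3%, 28.8% without thinning) and 7.91% of ER+ luminal-like cells (5.54% to 10.9%, 21.6% without thinning) had a UMI, against 2.04% of basal-like cells (0.753% to 4.39%, 4.42% without thinning), with median depths of 26126, 36352 and 25194 UMIs.

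By location, Cd55 in ER- luminal-like cells was 58.7 ± 24.1 CPM at the nipple (SD, n = 4), 34.9 ± 28.9 in ducts (n = 6) and 33.8 ± 21.5 in TEBs (n = 4), overlapping, with a log2 of nipple minus TEB of 0.78 (SE 0.70, edgeR adjusted p = 0.644). No other of the 8 genes passed the filter there, and it was called in no pair by edgeR or DESeq2, with 0 pairs at an unadjusted p under 0.05, while 4.65%, 1.66% and 1.43% of all genes were called for the nipple against TEBs, the nipple against ducts and ducts against TEBs. At an unadjusted p under 0.05 by edgeR were 946, 608 and 575 of the 5597 genes in these pairs. In ER+ luminal-like cells the nipple fragments held 51.8, 61.8, 11.9 and 19.0 CPM and the TEB fragments 9.0, 15.4, 13.1, 19.0, 0 and 0, which overlapped (log2 1.94, SE 0.75, edgeR adjusted p = 0.134). In fibroblast-like cells the nipple fragments held 38.3, 32.8, 32.3 and 66.9 CPM and the TEB fragments 236, 159, 187, 203 and 21.9, again with T42 apart, and the log2 was -1.93 (SE 0.78, edgeR adjusted p = 0.363). With fragments of at least 10 cells, a setting that leaves out T42 and whose share of called genes is not given, it was -2.20 (edgeR adjusted p = 0.000233). The pooled level was 289 CPM in the Pi16 cluster, 34.1 in the Mmp3 and Penk cluster and 0.900 in the F2r and Lrrc15 cluster.

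The other genes of the cascade were taken from a list of complement genes by role, of which 36 besides the 8 are described. C1s1 stands in the table under an older symbol, C1s, and with C1ra it has a near-identical copy (C1s2 and C1rb, 5 and 31 UMIs), so that reads shared by both copies are lost. Of the proteases and substrates of the classical pathway, fibroblast-like cells held the most, with C1s1 at 627 ± 291 CPM and C1ra at 511 ± 176 (SD, n = 13). By the mean over fragments C1ra was the highest of them in myeloid-like cells, at 5.90 ± 15.5 CPM (n = 12), from 8 UMIs of which 5 were in D51, and C2, the protease that completes the classical C3 convertase, in ER+ luminal-like cells, at 30.9 ± 47.1 (n = 16). C1s1 was the highest in basal-like cells, with 104 UMIs against 87.4 expected from other wells, and in ER- luminal-like cells, with 23 against 49.8. In the lectin pathway Colec12, a scavenger receptor with a collectin domain, led in fibroblast-like cells at 107 ± 81.2 CPM and in ER- luminal-like cells at 0.935 ± 2.50, Fcna in myeloid-like cells at 124 ± 178, and the protease Masp2 in basal-like and ER+ luminal-like cells at 8.63 ± 17.6 and 3.32 ± 4.51.

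Cfp, which stabilizes the alternative convertase, was at 740 ± 451 CPM in myeloid-like cells (SD, n = 12) and was the highest of its role in all classes, with 26 UMIs against 27.5 expected from other wells in basal-like cells. Hc, the gene of C5, led the terminal pathway in all classes and stood at 87.7 ± 87.6 CPM in fibroblast-like cells and at 7.57 CPM or less elsewhere. Of the regulators, clusterin, from Clu, was highest in basal-like (104 ± 42), ER+ luminal-like (1270 ± 421) and ER- luminal-like cells (1403 ± 381). Of the receptors, Itgb2 led in every class, at 542 ± 275 CPM in myeloid-like cells and 4.06 CPM or less elsewhere.

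**Figure D5:**
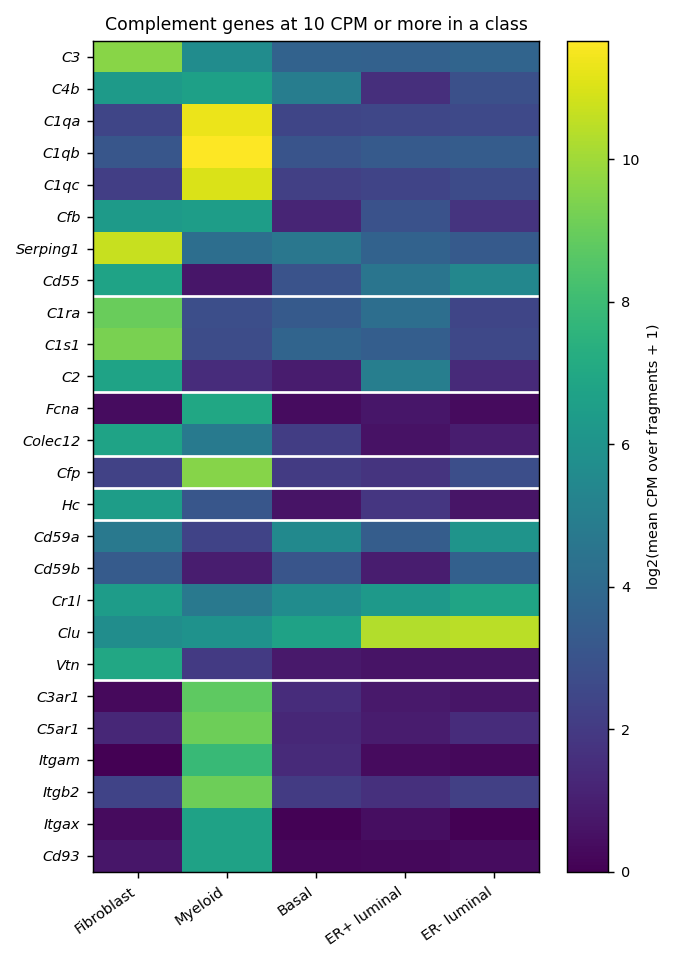
Mean level over fragments, as log2(mean CPM + 1), of 26 listed complement genes that reached 10 CPM in at least 1 class, with white lines between roles (from the top: the 8 genes, classical, lectin, alternative and terminal pathway, regulators and receptors). Classical proteases are brightest in fibroblast-like cells, receptors in myeloid-like cells and Clu in luminal cells.

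Between locations 4 of these 36 genes were called. In fibroblast-like cells 11 were tested and 1, Colec12, was higher at the nipple than in TEBs, at 206 against 47.6 CPM on average (log2 2.15, SE 0.45, edgeR adjusted p = 0.00882), where 1.54% of all genes were called. Without N21 its adjusted p was 0.0670. The nipple and TEB fragments did not overlap in this gene. The Mmp3 and Penk cluster held 115 nipple and 16 TEB cells and the Pi16 cluster 1 and 64. Cluster and location were not told apart for Colec12. The median log2 over the 11 was 0.49, beside -0.02 over all genes, and 3 were at an unadjusted p under 0.05 and 3 called by DESeq2. Of the 11, edgeR called 0 between the nipple and ducts and 0 between ducts and TEBs, with 4 and 3 at an unadjusted p under 0.05, and DESeq2 called 0 in both.

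In ER+ luminal-like cells 6 of the 36 were tested, and 2 were called for nipple minus TEB beside 5.67% of all genes. C2 was at 98.2, 84.5, 61.4 and 164 CPM at the nipple, 2.56 to 15.7 in ducts and 0 to 6.56 in TEBs, higher at the nipple than in TEBs by a log2 of 5.02 (SE 0.57, edgeR adjusted p = 2.65e-07) and than in ducts by 3.17 (SE 0.51, adjusted p = 0.000314), so all nipple fragments lay above all others. Clu was at 830 CPM at the nipple, 1145 in ducts and 1689 in TEBs on average, lower at the nipple than in TEBs by a log2 of -1.02 (SE 0.14, adjusted p = 1e-05) and in ducts than in TEBs by -0.56 (SE 0.12, adjusted p = 0.00996, with overlapping fragments). The median log2 of nipple minus TEB over the 6 was 0.37, beside -0.02 over all genes. Of the 6, edgeR called 2, 1 and 1 for the nipple against TEBs, the nipple against ducts and ducts against TEBs. DESeq2 called 2, 1 and 3, and 3, 2 and 3 were at an unadjusted p under 0.05 by edgeR. The part of the uneven clusters of this class, given above, in these differences was not tested. C2 passed the filter on low counts through all nipple fragments and through no TEB fragment. In basal-like cells 1 of 4, Cd59a, which blocks the membrane attack complex, was at 88.3 CPM at the nipple and 31.2 in TEBs (log2 1.48, SE 0.50, adjusted p = 0.0325), with overlapping fragments and 18.7% of all genes called. It lost the call in 7 of 25 alternatives, among them without N21, N24, T32, T34 or T42 (edgeR adjusted p up to 0.136), and, since TEB and nipple basal-like cells were in different clusters but for 1 cell, cluster and location cannot be told apart. Of the 4 in basal-like cells, edgeR called 1, 0 and 0 in the same order of pairs and DESeq2 2, 1 and 0. By edgeR 2, 2 and 1 of them were at an unadjusted p under 0.05. In myeloid-like cells 9 were tested and edgeR called 0 in each pair of locations, with 1 at an unadjusted p under 0.05 for nipple minus TEB and 0 for the others, and in ER- luminal-like cells 3 were tested and 0 called, with 1, 0 and 1 at an unadjusted p under 0.05. DESeq2 also called 0 in both classes. For the list genes too, the counts of all genes called or at an unadjusted p under 0.05 are those given above for each class and pair.

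The genes most like each of the 8 were found by Pearson's r of log2(CPM + 1) over 71 sums of a class in a fragment, among 8710 genes. These r describe the sums, which share libraries and classes, and carry no p. C3 was nearest to Ifi205 (r = 0.856), Gpr133 and Fn1. Serping1 was nearest to the collagen genes Col3a1 (0.884) and Col1a1 and to Ogn. C4b and Cfb both had Mnda as the nearest gene (0.703 and 0.723), followed by Mafk and Igf1 for C4b and by Qpct and Ifi204 for Cfb. C1qa was nearest to C1qb (0.949), C1qc and Alox5ap, C1qb to C1qa, Cd53 and C1qc, and C1qc to Ms4a6c (0.950), Cd86 and Cd53. Cd55 had Kcnk5 (0.717), Anxa1 and Arl4a as its nearest genes.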

How the data were processed

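Single cells of nipple, duct and TEB fragments were sorted into plates and sequenced from the 3' end with UMIs. The authors trimmed and filtered reads (TrimGalore, FastQC) and extracted cell barcodes and UMIs (UMI-tools). They aligned reads to mm10 (STAR), assigned them to genes (featureCounts) and then made the count matrix (UMI-tools). Raw UMI counts were deposited, with no normalization. Only unique alignments were counted, which lowers genes with a near-identical copy.

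Cells with at most 5% spike-ins, 5000 to 120000 UMIs and 200 to 6000 genes were kept. They were clustered with Seurat 5.3.0 (2000 variable genes, 14 components, resolution 0.5) and named from marker lists. Doublets were not called. Counts were summed per class and fragment and compared between locations with edgeR 4.0.16 (quasi-likelihood, TMM, a filter on low counts, Benjamini-Hochberg over all genes, threshold 0.05, all 3 locations in 1 fit) in R 4.3.3. DESeq2 1.42.0 was an alternative. The scripts were tested on simulated data. Exact intervals are Clopper-Pearson at 95% and, like the limits from counts, cover counting error only. Cells were thinned to 5000 UMIs to compare shares of cells.

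The 8 genes, the list of complement genes and the markers were chosen with earlier results of these data known, and 1 gene of the list is not reported here. Besides the 8 genes, the text names the list genes called between locations, the highest gene of each role in each class where it is reported, and the 3 genes most like each of the 8 among those reaching 20 CPM in a class. The cluster genes, C4a, the copies of C1ra and C1s1, and the genes named in the C1q split were added after values were seen.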

Additional observations from a re-analysis of the deposited data

Results flagged for a closer look

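Of 47 groups of 4 to 10 fragments with a mean of at least 10 CPM, 9 values stood apart from the rest of their group by Dixon's test at the 95% level, which chance gives in about 1 in 20 groups. In 7 of them 1 cell held most of the UMIs. C4b was at 333 CPM in myeloid-like cells of D61, with 33 of 37 UMIs in 1 cell. Cd55 was at 333 CPM in fibroblast-like cells of D52, with 45 of 56 UMIs in 1 cell, and at 92.3 CPM in ER- luminal-like cells of D62, with 20 of 26 in 1 cell. Serping1 was at 73.5 CPM in basal-like cells of T31, with 33 of 39 UMIs in 1 cell. C1qb was at 48.1 CPM in ER- luminal-like cells of T33, where 1 cell held 30 of 37 UMIs.

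Serping1 was also lowest in fibroblast-like cells of T42 (169 CPM, with 60 of 77 UMIs in 1 cell), where 4 of 6 cells were in the F2r and Lrrc15 cluster, and highest in those of D32 (4314 CPM, 395 UMIs in 5 cells). C3 was at 81.0 CPM in myeloid-like cells of D61, from 9 UMIs of which 6 were in 1 cell, and Cfb at 216 CPM in those of D51, from 20 UMIs.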

How the results depend on the processing

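The number of the 8 genes called between locations depended on the settings in 3 classes. In fibroblast-like cells edgeR called 0, and 1 with DESeq2, 4 with at least 10 cells per fragment, 1 at 5000 UMIs per cell and, in comparisons added after the data were seen, 1 in the Mmp3 and Penk cluster alone and 2 without the F2r and Lrrc15 cluster. Leaving out 1 fragment gave 0 to 1, with C3 called without T42. In basal-like cells the count of 1 became 0 with a higher minimum of UMIs per cell, at 5000 UMIs per cell, with only the locations compared and with RNA from other wells subtracted, and 0 to 1 without 1 fragment (0 without D51, D61, D62, N22, N23, N24 or T31). In ER+ luminal-like cells the count of 1 became 2 with DESeq2 and 0 with at least 10 cells per fragment, at 5000 UMIs per cell and with only the locations compared, and 0 to 1 without 1 fragment (0 without D32, D52, N21, N22, N24, T31, T32, T33 or T34). The causes were not tested. Apart from the Mmp3 and Penk cluster alone (0.853% of genes), these counts are given without the share of all genes called in each setting. The same holds for the counts by DESeq2 given above. They thus do not show whether the 8 genes were called more often than other genes. In myeloid-like and ER- luminal-like cells the count was 0 in 22 and 24 alternatives. The sign of a difference was compared only for genes called in the other classes, and none changed.

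Of the genes called, C2 kept its call in all 25 alternatives that gave a value and Clu in all 26. Colec12 lost it in 1 of 24 (adjusted p up to 0.0670), Cd59a in 7 of 25 (up to 0.136), Serping1 in basal-like cells in 6 of 21 (up to 0.0747) and Cfb in ER+ luminal-like cells in 10 of 23 (up to 0.115), all by edgeR or DESeq2. Alternatives in which a gene gave no value are not in these counts, and the basal-like and ER+ luminal-like classes had 26 each.

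Duct and TEB fragments shared the numbers 31 and 32 only. The deviations of same-numbered fragments from the mean of their location correlated at 0.0102 in basal-like and 0.00436 in ER+ luminal-like cells. With 4 fragments in each class, this cannot show whether the numbers pair them. With the replicate block 0 of the 8 genes were called between duct and TEB in both classes, as without it. The block could not be fitted in the other classes. With more cells per fragment, 0 nipple fragments were left for myeloid-like and 1 TEB fragment for ER- luminal-like cells.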
